A study of Mus musculus with 4 samples.

Results

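Binding of the transcription factor MIZ-1 at the promoters of long noncoding RNA (lncRNA) genes was examined in splenic B220+ cells. The promoter peaks were those whose nearest annotated transcript start belonged to a gene of type lincRNA, antisense, bidirectional_promoter_lncRNA, sense_intronic or sense_overlapping. A peak had to cover that start, lie less than 2000 bp before it or lie less than 1000 bp after it. This gave 2142 of the 112566 deposited peaks. They comprised 610 of 34209 peaks (1.78%, 95% Wilson interval 1.65 to 1.93) in the MIZ-1WT list and 1532 of 78357 (1.96%, 1.86 to 2.05) in that of MIZ-1DPOZ. Peaks within 1000 bp of a protein-coding start were kept apart from the stand-alone ones. There were 222 such peaks in the MIZ-1WT list (36.4%, 32.7 to 40.3) and 403 in the MIZ-1DPOZ list (26.3%, 24.2 to 28.6). Stand-alone peaks numbered 388 and 1129.

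The series held 4 libraries from mouse spleen, 1 chromatin immunoprecipitation (ChIP) library made with the MIZ-1 antibody H-190 and 1 input library for each of 2 genotypes. MIZ-1WT is the wild type. In MIZ-1DPOZ mice (MB1-Cre x Miz-1floxPOZ), Cre driven from the B lineage gene MB1 removes the POZ domain of MIZ-1 in B cells, and all lines were on a C57BL/6 background. The study's methods give a single age range of young mice for all its animals, not divided by genotype. Neither the sex of the mice, nor how many were pooled, nor whether the wild type carried MB1-Cre is given in the sources used here. Peak lists hold no expression values, so neither the B cell identity of the sample nor the deletion could be checked. With 1 ChIP library per genotype there is no replicate, no test was made, and every difference below compares these libraries. Intervals cover counting error only.

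MIZ-1 is a zinc finger protein whose POZ domain lets it form homodimers, and it is a binding partner of MYC. A lncRNA is a long transcript with no evident protein product. Many start close to a protein-coding gene and run away from it on the other strand, so that both genes share a single nucleosome-free, CpG-rich promoter. Others lie between genes, and a number of these serve as the precursors of microRNAs (miRNAs) or small nucleolar RNAs (snoRNAs). At a shared promoter a ChIP peak cannot be ascribed to one of the genes.

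Sequences around 6 summits show what these sites look like. They belong to the lncRNA genes ranked first by −log10 q among summits of single-copy sequence, where a gene with peaks in both lists was ranked by the smaller of its 2 values. Each class of promoter has one locus with peaks in both genotypes, one with a MIZ-1WT peak alone and one with a MIZ-1DPOZ peak alone. Each run has 151 bases of GRCm38 (mm10), is centred on the summit and reads 5′ to 3′ on the strand of the lncRNA, and capitals mark CG dinucleotides.
Stand-alone, both lists, Gm30025 (chr12:80435140-80435290, plus strand): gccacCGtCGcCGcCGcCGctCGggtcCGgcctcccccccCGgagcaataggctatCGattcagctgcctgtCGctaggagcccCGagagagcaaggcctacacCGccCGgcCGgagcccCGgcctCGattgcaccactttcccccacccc
Stand-alone, MIZ-1WT only, Gm43020 (chr5:43355950-43356100, minus strand): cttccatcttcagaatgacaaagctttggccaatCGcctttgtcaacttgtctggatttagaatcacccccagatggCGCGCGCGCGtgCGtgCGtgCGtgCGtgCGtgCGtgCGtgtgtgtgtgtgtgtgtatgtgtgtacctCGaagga
Stand-alone, MIZ-1DPOZ only, Airn (chr17:12741748-12741898, plus strand): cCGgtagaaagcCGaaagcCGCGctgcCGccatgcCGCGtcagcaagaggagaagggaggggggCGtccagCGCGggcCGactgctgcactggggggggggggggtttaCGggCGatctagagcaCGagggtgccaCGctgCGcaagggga
Near a protein-coding start, both lists, Tug1 (chr11:3648779-3648929, minus strand): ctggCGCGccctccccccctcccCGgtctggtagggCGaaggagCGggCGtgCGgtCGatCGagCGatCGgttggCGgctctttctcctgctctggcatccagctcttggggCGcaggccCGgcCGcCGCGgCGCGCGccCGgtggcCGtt
Near a protein-coding start, MIZ-1WT only, 4933430L12Rik (chr7:25218854-25219004, plus strand): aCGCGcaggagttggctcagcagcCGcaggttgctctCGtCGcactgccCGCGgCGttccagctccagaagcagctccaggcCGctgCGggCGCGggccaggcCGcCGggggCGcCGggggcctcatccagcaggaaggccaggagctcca
Near a protein-coding start, MIZ-1DPOZ only, Ctcflos (chr2:173120328-173120478, plus strand): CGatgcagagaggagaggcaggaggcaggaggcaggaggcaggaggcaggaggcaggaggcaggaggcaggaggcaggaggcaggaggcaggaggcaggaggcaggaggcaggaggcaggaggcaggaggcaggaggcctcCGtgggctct
The windows of Tug1 and Gm30025, which had peaks in both lists, held 22 and 16 CG dinucleotides and had a GC content of 75.5% and 72.2%. Airn and 4933430L12Rik also held 16 each. The other windows looked different. That of Gm43020 ran into a repeat of alternating C and G, then T and G, and that of Ctcflos was mostly a short GGCAGGA unit in tandem with 2 CG dinucleotides. Ctcflos counted as single-copy by the median over 5 sequences around the summit, although this unit recurs across the centre of its window.

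Most of the lncRNA promoters belonged to antisense and lincRNA genes. In the MIZ-1WT list, 286 of the 610 peaks lay at antisense genes, 280 at lincRNA genes, 31 at bidirectional_promoter_lncRNA genes, 11 at sense_intronic genes and 2 at sense_overlapping genes. The same types held 646, 788, 57, 33 and 8 of the 1532 MIZ-1DPOZ peaks. The annotation holds 5854 lincRNA, 2959 antisense and 190 bidirectional_promoter_lncRNA genes, so peak numbers alone do not rank the types. A MIZ-1WT promoter peak was found at 4.56% of lincRNA, 9.06% of antisense and 15.8% of bidirectional genes. For MIZ-1DPOZ the shares were 12.2%, 19.6% and 28.4%. These gene types are named for position relative to other genes, so the share near a protein-coding start is in part given by them. That share followed the type. It was 13.9% (10.4 to 18.5) for lincRNA peaks, 52.8% (47.0 to 58.5) for antisense peaks and 96.8% (83.8 to 99.4) for bidirectional peaks in the MIZ-1WT list, and 9.01%, 42.3% and 96.5% in the MIZ-1DPOZ list. The peaks fell on 576 and 1383 lncRNA genes. Of these, 33 and 132 genes carried more than 1 peak, with at most 3 (MIZ-1WT) and 4 (MIZ-1DPOZ) at one gene.

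Of the 9360 annotated lncRNA genes, 6.15% (5.68 to 6.66) had a MIZ-1WT promoter peak and 14.8% (14.1 to 15.5) a MIZ-1DPOZ promoter peak. Over the 55450 annotated genes of any type the shares were 13.8% and 24.5%, and over protein-coding genes 27.5% and 44.0%. The share among lncRNA genes was thus below that of all genes in both lists. It differed with the base composition of the start. A start was called CpG-rich when the 201 bp around it had a GC content of at least 50% and an observed over expected CpG ratio of at least 0.6. Among genes whose starts lay over 1000 bp from any protein-coding start, 26.6% (22.9 to 30.8) of 477 with a CpG-rich start had a MIZ-1WT peak, against 3.14% (2.77 to 3.56) of 7485 others. In the MIZ-1DPOZ list the values were 41.3% (37.0 to 45.8) and 10.8% (10.1 to 11.5). Protein-coding genes had higher shares at both kinds of start, with 43.3% and 63.0% at CpG-rich starts and 7.84% and 20.5% at others. Only 5.99% of the stand-alone lncRNA genes had a CpG-rich start, compared with 55.3% of the protein-coding genes.

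**Figure D1:**
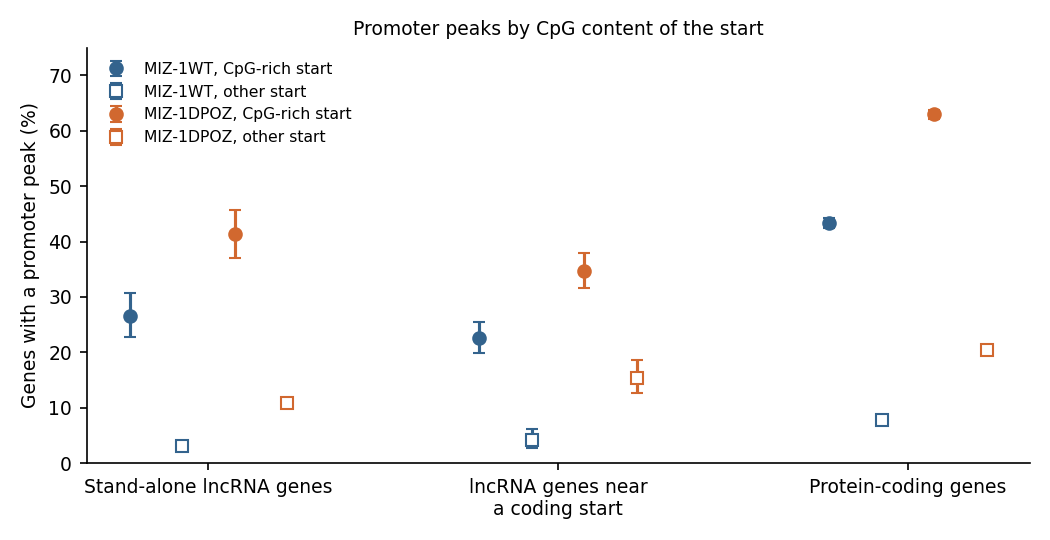
Share of genes with a promoter peak (percent, y axis) for lncRNA genes away from and near a protein-coding start and for protein-coding genes (x axis), with 95% Wilson intervals; filled circles are CpG-rich starts and open squares other starts, blue the MIZ-1WT list and orange the MIZ-1DPOZ list. Within each class and list the CpG-rich starts lie above the others, as in 26.6% against 3.14% for stand-alone lncRNA genes in the MIZ-1WT list.

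Near protein-coding genes the rule gives a peak to whichever start is closest, which lowers the count for lncRNA genes. Under it 15.3% (13.5 to 17.3) of 1398 lncRNA genes near a protein-coding start had a MIZ-1WT peak and 27.1% (24.8 to 29.5) a MIZ-1DPOZ peak. When any peak in the promoter window was accepted, whatever start was nearest, the shares were 45.1% and 65.6%. For stand-alone lncRNA genes this choice made little difference, with 4.55% and 5.40% in the MIZ-1WT list and 12.6% and 14.2% in that of MIZ-1DPOZ.

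The lncRNA start and its closest protein-coding start were on opposite strands in nearly all pairs. This too is in part given by the gene types, since antisense genes are annotated on the strand opposite another gene. Of the 222 MIZ-1WT peaks near a protein-coding start, 74 (33.3%, 27.5 to 39.8) lay at divergent pairs, whose transcripts run away from each other. Another 146 (65.8%, 59.3 to 71.7) lay at pairs whose transcripts run towards and across each other, and 2 at pairs on the same strand. The MIZ-1DPOZ list held 138 (34.2%, 29.8 to 39.0), 257 (63.8%, 59.0 to 68.3) and 8. Divergent starts were a median of 175 and 172 bp apart in the 2 lists, and overlapping antisense starts 398 and 403 bp. The median pileup, the number of fragments over the summit, was 9 for both arrangements in the MIZ-1WT list and 12 in that of MIZ-1DPOZ, so peak height did not separate them.

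Summits of the stand-alone peaks were spread across the promoter window. In the MIZ-1WT list 28.4% (24.1 to 33.0) lay within 250 bp of the start, and in the MIZ-1DPOZ list 28.4% (25.9 to 31.1). For peaks at protein-coding promoters the shares were 60.6% (59.5 to 61.7) and 55.9% (55.0 to 56.8). The peak itself covered the start in 15.2% and 16.8% (14.8 to 19.1) of stand-alone peaks, compared with 36.5% and 38.9% at protein-coding promoters. The summit lay before the start in 55.7% (50.7 to 60.5) and 56.7% (53.8 to 59.6) of stand-alone peaks, and in 33.3% and 30.4% at protein-coding promoters. The window reaches 2000 bp before the start but 1000 bp after it, so these shares alone show no upstream preference. Within 250 bp of the start, stand-alone MIZ-1WT summits held 4.95% per 100 bp before it and 6.39% after it. For MIZ-1DPOZ these were 5.46% and 5.88%. For lncRNA peaks near a protein-coding start the rule itself holds peaks close to the lncRNA start, since a second start competes for them, and 68.0% and 70.0% of their summits lay within 250 bp.

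**Figure D2:**
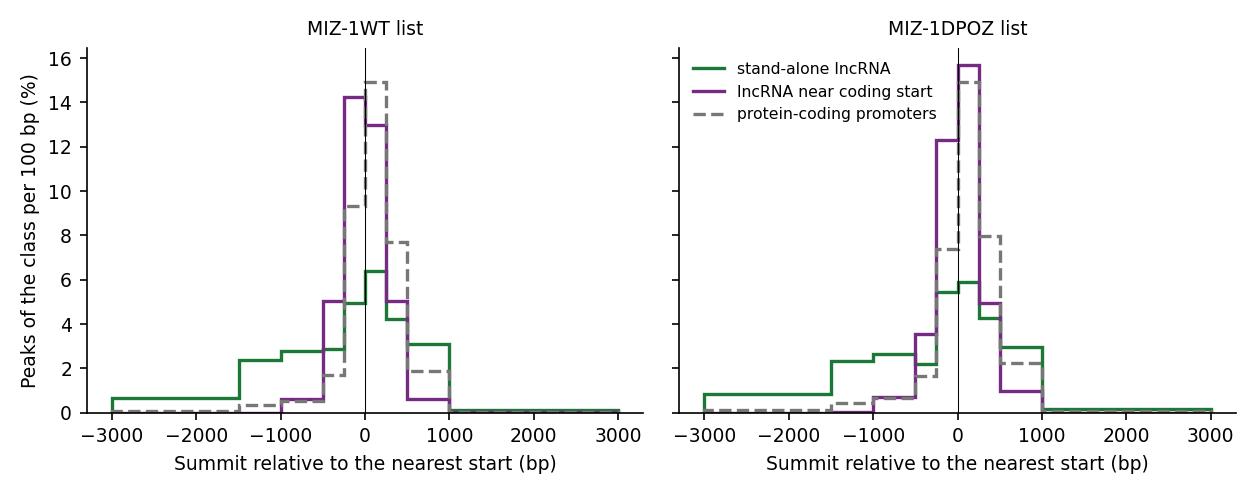
Position of peak summits relative to the nearest transcript start (bp, x axis; negative is before the start) as the percent of peaks of each class per 100 bp (y axis), for the MIZ-1WT list (left) and the MIZ-1DPOZ list (right). Stand-alone lncRNA peaks form a low, broad profile that reaches 6.39% per 100 bp just after the start in the MIZ-1WT list, whereas protein-coding promoters reach 14.9%.

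Stand-alone and coding-linked lncRNA peaks differed in the sequence under the summit. Within 100 bp of the summit, the median GC content was 64.7% (order-statistic interval 63.7 to 65.7) for stand-alone MIZ-1WT peaks and 73.6% (73.1 to 74.6) for those near a protein-coding start, and 62.2% (61.7 to 62.7) and 71.1% (70.6 to 71.6) in the MIZ-1DPOZ list. Over all peaks it was 60.7% and 60.2%, and over protein-coding promoter peaks 73.6% and 70.6%. Peaks near a protein-coding start were thus close in composition to protein-coding promoters, and stand-alone peaks lay closer to all peaks. The observed over expected CpG ratio followed the same order, with medians of 0.608 and 0.893 in the MIZ-1WT list and 0.423 and 0.827 in that of MIZ-1DPOZ.

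Repeats were the other feature on which the classes parted. Over 50% of the summit window was soft-masked as repeat in 34.3% (29.7 to 39.1) of stand-alone MIZ-1WT peaks and 38.5% (35.7 to 41.4) of stand-alone MIZ-1DPOZ peaks. Near a protein-coding start this held for 0.450% and 1.24%, and over all peaks for 60.4% and 56.0%. Single-copy summits were those where 5 sequences of 50 bases around the summit had a median of 1 copy in the genome. By this measure 71.4% (66.7 to 75.7) and 71.9% (69.2 to 74.5) of stand-alone summits were single-copy, and 97.3% and 97.5% of those near a protein-coding start. At a multi-copy summit, reads cannot be assigned to one place, and how the authors placed them is not given in the sources used here.

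Short motifs were searched within 100 bp of the summit on both strands. GGGCGG, the GC box bound by SP/KLF factors, was present in 32.0% (27.5 to 36.8) of stand-alone MIZ-1WT peaks and 64.0% (57.5 to 70.0) of those near a protein-coding start. In the MIZ-1DPOZ list these shares were 26.8% (24.3 to 29.5) and 56.3% (51.5 to 61.1). It was found in 26.8% and 22.4% of all peaks and in 65.2% and 56.3% of protein-coding promoter peaks. CCAAT went the other way, with 17.3% and 18.1% of stand-alone peaks, 11.3% and 10.2% near a protein-coding start and 25.6% and 25.1% of all peaks. TATAAA was in 5.93% and 2.04% of stand-alone peaks, and in 9.99% of all MIZ-1WT peaks, a higher share than among the stand-alone ones. It was in none of the 222 and 403 peaks near a protein-coding start. This allows shares of up to 1.35% and 0.744% (3 counts of the total) or, by the Wilson upper limit used for the other shares, 1.70% and 0.944%. CACGTG, the E-box core bound by MYC and MAX, occurred in 3.09% and 3.90% of stand-alone peaks and 3.15% and 4.22% near a protein-coding start, beside 3.25% and 3.45% of all peaks. CCGGAAG, bound by ETS factors, occurred in 4.12% and 3.01% of stand-alone peaks and 4.05% and 7.20% near a protein-coding start, beside 6.38% and 3.84% of all peaks. These are matches of letters and not measured sites.

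Overlap between the genotypes was compared by class. Of the 610 MIZ-1WT peaks, 63.8% (59.9 to 67.5) overlapped a MIZ-1DPOZ peak by at least 1 bp, against 53.7% of all MIZ-1WT peaks. For the 1532 MIZ-1DPOZ peaks the share was 25.6% (23.5 to 27.8), against 22.1% of all MIZ-1DPOZ peaks. The 2 classes of lncRNA promoter differed. Near a protein-coding start the share was 72.5% (66.3 to 78.0) in the MIZ-1WT list and 42.2% (37.5 to 47.1) in that of MIZ-1DPOZ, close to the 73.4% and 41.4% of protein-coding promoter peaks. For stand-alone peaks it was 58.8% (53.8 to 63.6) and 19.7% (17.4 to 22.1). The share of the MIZ-1DPOZ peaks depends on the length of that list. With both lists held to the number of MIZ-1WT peaks, 38.7% of the MIZ-1WT peaks and 34.0% of 668 MIZ-1DPOZ peaks at lncRNA promoters overlapped the other list.

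**Figure D3:**
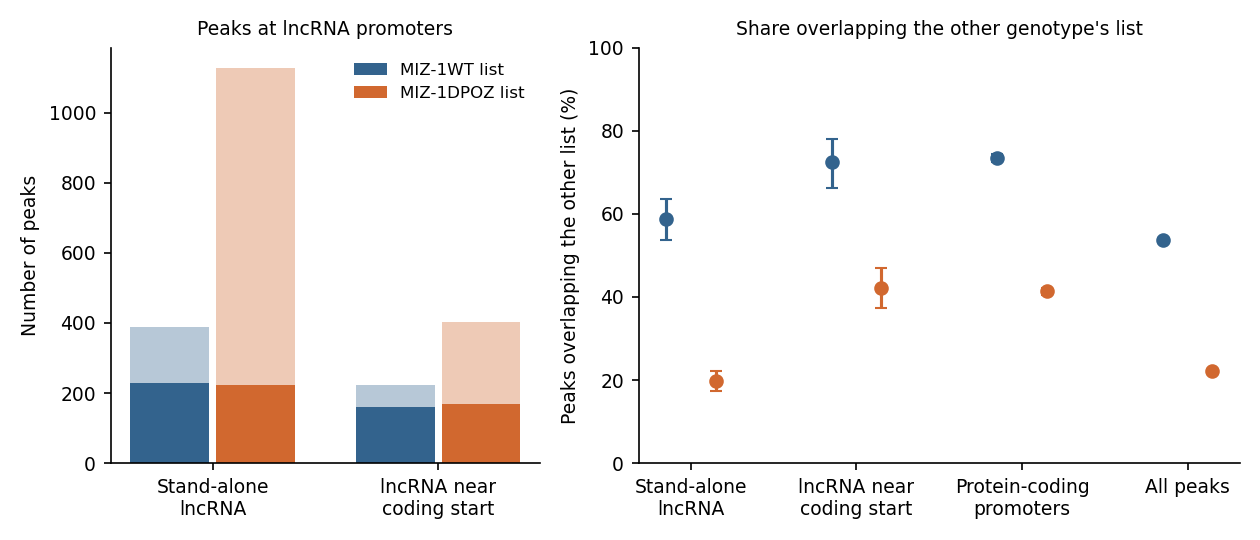
Left: number of peaks (y axis) at stand-alone lncRNA promoters and at lncRNA promoters near a protein-coding start, with the full bar for all peaks and the dark part for those overlapping the other list. Right: percent of peaks overlapping the other list (y axis, 95% Wilson intervals) for the same classes, protein-coding promoters and all peaks, with blue for MIZ-1WT and orange for MIZ-1DPOZ. The 2 lists hold similar numbers of overlapping stand-alone peaks (228 and 222), and the lighter part makes up most of the 1129 MIZ-1DPOZ peaks.

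Most of these peaks rested on few fragments. The summit pileup of lncRNA promoter peaks had a median of 9 for MIZ-1WT (quartiles 8 and 11), against 12 for MIZ-1DPOZ (10 and 15), the same medians as over all peaks. The overlap of stand-alone MIZ-1WT peaks was higher at higher pileups. It was 48.9% (42.5 to 55.4) of 227 peaks with 5 to 9 fragments, 67.2% (58.7 to 74.7) of 128 with 10 to 14, 87.5% of 16 with 15 to 19 and each of the 17 with 20 or more. Near a protein-coding start the corresponding shares began at 71.4% (63.0 to 78.6) of 126 peaks and 73.3% (63.4 to 81.4) of 90 peaks, so the classes differed most among peaks with 5 to 9 fragments. In the MIZ-1DPOZ list the stand-alone share went from 8.60% (5.36 to 13.5) of 186 peaks to 50.8% (42.0 to 59.6) of 120, and only 18.3% of those 120 summits were single-copy. Near a protein-coding start it was 41.5% of 65 peaks with 5 to 9 fragments, 42.8% of 236 with 10 to 14 and 44.2% of 86 with 15 to 19. With 20 or more fragments 4 of 16 peaks overlapped (95% interval 10.2% to 49.5%), a lower share than among stand-alone peaks.

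Base composition also differed between peaks with and without an overlap in the other list. A CpG-rich summit window was found in 60.1% (53.6 to 66.2) of the 228 overlapping stand-alone MIZ-1WT peaks and 28.8% (22.3 to 36.2) of the other 160. For stand-alone MIZ-1DPOZ peaks the values were 62.6% (56.1 to 68.7) of 222 and 24.3% (21.6 to 27.2) of 907. All peaks showed the same order, with 52.4% and 16.9% in the MIZ-1WT list and 51.8% and 22.5% in that of MIZ-1DPOZ. The single-copy share was alike in all 4 stand-alone groups, between 69.4% and 72.5%.

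By gene, 385 of the 1574 lncRNA genes with any promoter peak had one in both lists. Another 157 had one in the MIZ-1WT list alone and 954 in that of MIZ-1DPOZ alone. With lists of equal length these counts were 326 and 388. Over annotated genes of any type, 7658 had a MIZ-1WT and 13605 a MIZ-1DPOZ promoter peak. The higher number in the MIZ-1DPOZ list was thus not particular to lncRNA genes. The split into both and only was not made for all genes. For a further 78 genes a promoter peak overlapped a peak of the other list that was nearest to another start. In 303 of the 385 genes (78.7%, 74.3 to 82.5) the strongest promoter peaks of the genotypes overlapped. Of the 1120 stand-alone genes, 21.5% (19.2 to 24.0) were in both lists, 10.1% in the MIZ-1WT list alone and 67.7% (64.9 to 70.4) in that of MIZ-1DPOZ alone. Of the 454 genes near a protein-coding start, the corresponding shares were 31.7% (27.6 to 36.1), 9.69% (7.30 to 12.8) and 43.2% (38.7 to 47.8). A gene in one list only has no peak of the other list that was assigned to it or that overlaps its promoter peaks. A peak of the other list assigned to a neighbouring start may still lie in its promoter window. Where no peak was called, the lists give no value.

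Pileups of overlapping peaks were then compared after dividing the MIZ-1DPOZ pileup by 1.34, the ratio of library depths recovered from the peak scores. It is a ratio of local background per bp, with the shortest peak widths of the lists (148 bp in MIZ-1WT, 173 bp in MIZ-1DPOZ) as lengths. Of 377 overlapping pairs at lncRNA promoters, the exact binomial 95% interval of the MIZ-1DPOZ over MIZ-1WT ratio lay above 1 for 28 and below 1 for 7. Over all 17093 overlapping pairs, 25.3% lay above 1 and 1.26% below. All 28 pairs above 1 were stand-alone, and 27 of them had multi-copy summits, with a median of 87.5 copies over the 28. The exception was AL805899.1, a lincRNA gene with 7 MIZ-1WT and 24 MIZ-1DPOZ fragments (ratio 2.56, 1.07 to 7.03). The median log2 ratio was 0.90 (0.58 to 1.24) for 63 multi-copy stand-alone pairs, 0.06 (-0.01 to 0.12) for 154 single-copy stand-alone pairs and 0.04 (-0.08 to 0.16) for 160 pairs near a protein-coding start. All peaks showed the same split, with 1.06 for 7908 multi-copy and 0.07 for 9185 single-copy pairs. Scaling by the most frequent local background instead (a ratio of 1.57), without division by these lengths, lowers every log2 ratio by 0.23. Then 24 pairs lay above 1 and 10 below, beside 20.7% and 1.99% of all pairs, and the interval of AL805899.1 included 1 (0.915 to 6.01).

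**Figure D4:**
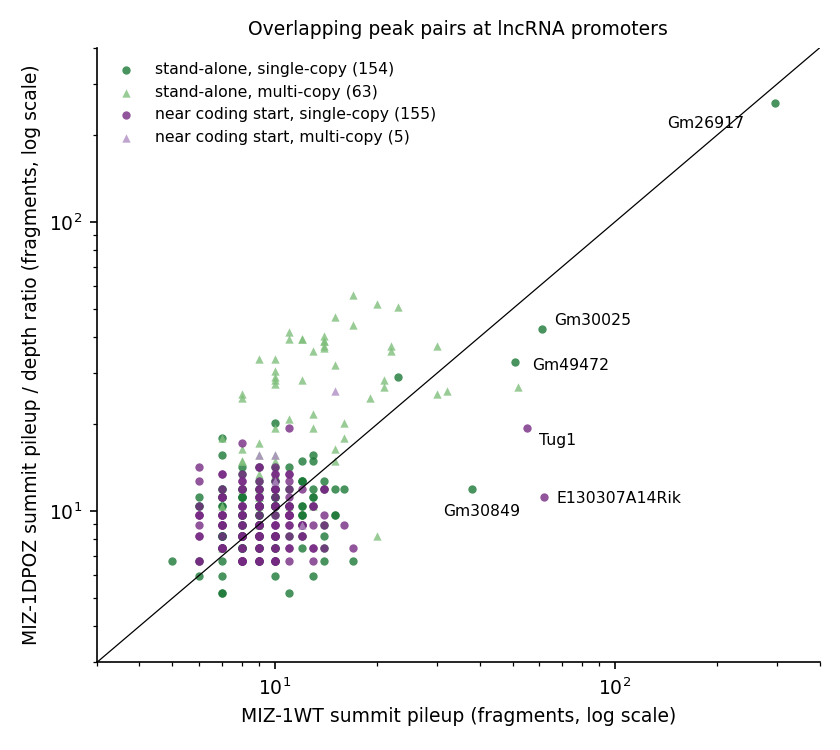
Summit pileups of the 377 overlapping peak pairs at lncRNA promoters, MIZ-1WT on the x axis and MIZ-1DPOZ divided by the depth ratio on the y axis (fragments, log scales; the line marks equal values). Circles are single-copy and triangles multi-copy MIZ-1WT summits, green for stand-alone and purple for pairs near a protein-coding start. Most points sit near the line below 20 fragments, most multi-copy pairs lie above it, and E130307A14Rik, Tug1 and Gm30849 lie below.

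The strongest MIZ-1WT peaks at lncRNA promoters, those of E130307A14Rik and Tug1, had lower pileups in the MIZ-1DPOZ list. They were picked here by their strength in the MIZ-1WT list, which by itself tends to lower such ratios. The intervals below do not cover this choice. E130307A14Rik, named after its values were seen, is an antisense gene on chromosome 10 that diverges from Rev3l, the gene of the catalytic subunit of DNA polymerase zeta. Its peak at chr10:39731755-39732143 had 62 fragments and a fold enrichment of 20.3 in the MIZ-1WT list, and 15 fragments and a fold of 5.45 in the MIZ-1DPOZ list. The ratio was 0.180 (0.0953 to 0.321). Among all MIZ-1WT peaks it ranked 150 by −log10 q, the highest rank of any lncRNA promoter peak. Tug1, a widely expressed nuclear lncRNA whose start faces away from Morc2a, came next at rank 158. Its peak at chr11:3648655-3648990, with the summit 42 bp before the start, had 55 fragments and a fold of 22.3 in the MIZ-1WT list. The MIZ-1DPOZ list had 26 fragments and a fold of 11.0 there, a ratio of 0.353 (0.212 to 0.572). At both genes the MIZ-1DPOZ pileup was the lower one before any scaling.

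Gm30025, Gm49472 and Gm47882 ranked first among stand-alone genes with peaks in both lists, by the smaller of the 2 −log10 q values. In the MIZ-1DPOZ list alone the multi-copy 1700019J19Rik, with 75 fragments, ranked above Gm30025. Gm30025 is an antisense gene whose peak at chr12:80435074-80435379 covers its start and lies 1222 bp from the nearest start of Dcaf5, so it falls just outside the class near protein-coding genes. It had 61 MIZ-1WT and 57 MIZ-1DPOZ fragments, a ratio of 0.697 (0.477 to 1.02). Gm49472, a lincRNA gene 342700 bp from any protein-coding start, had 51 and 44 fragments 476 bp after its start (0.643, 0.420 to 0.982). Gm47882 had 52 and 36 fragments (0.516, 0.328 to 0.805), with a MIZ-1WT summit sequence present in 2 copies. All 3 intervals overlapped that of Tug1. Under the scaling by background the interval of Gm30025 lay below 1 (0.596, 0.408 to 0.870).

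A few other lncRNA pairs lay below 1. Gm30849, a lincRNA gene named after its values were seen, had 38 and 16 fragments 1443 bp before its start (0.314, 0.163 to 0.577). The remaining pairs were 4930539M17Rik with 17 and 9 fragments (0.395, 0.155 to 0.937) and the multi-copy B930018H19Rik with 20 and 11 (0.410, 0.178 to 0.898). In the opposite direction AL805899.1 was the sole single-copy gene with an interval above 1.

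Gm26917 and its neighbour Gm42418 on chromosome 17 were a case of their own. Gm26917 had 296 and 346 fragments, and no peak of the respective list had a higher pileup. Its MIZ-1WT peak was 3316 bp long, and its folds were only 2.23 and 2.01. Gm42418 had 274 and 317 fragments at folds of 2.07 and 1.84, and its strongest peaks did not overlap each other. Its MIZ-1WT peak lay inside the MIZ-1DPOZ peak assigned to Gm26917. The fold of Gm26917 lay at percentile 0.0526 of the MIZ-1WT list, so the local background was high at the same place. This stretch is known to hold ribosomal RNA gene sequence, whose arrays are largely missing from the assembly. Its summits counted as single-copy here, apart from the MIZ-1DPOZ summit of Gm42418 with 2 copies, because copies were counted in that assembly.

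Among the 157 genes with a promoter peak only in the MIZ-1WT list, the strongest peaks were modest. The top stand-alone genes were Gm43020, Gm47156, Gm44866 and Gm26635, each with 13 fragments and a fold between 7.08 and 7.53, and the summit of Gm47156 had 12 genomic copies. Near a protein-coding start they were 4933430L12Rik across from Dedd2 (14 fragments, fold 7.76), Ccdc142os across from Mrpl53 (13 fragments, 7.53) and Gm11491, which diverges from Trim37 (12 fragments, 6.99). None reached the pileups of the strongest genes found in both lists.

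Before any scaling, the genes found only in the MIZ-1DPOZ list had higher pileups at the top. The pileups in this paragraph were not divided by the ratio of library depths. The top was also taken from 954 genes, against 157 found only in the MIZ-1WT list. Whether binding was stronger at these genes was not tested. Gm26686, Gm48161 and Platr13 led the stand-alone genes with 46, 45 and 38 fragments, but their summit sequences had 267, 82 and 16 genomic copies. Among single-copy summits the first was Airn, an imprinted transcript antisense to Igf2r that silences genes of its domain. Its peak at chr17:12741662-12742024 had 23 fragments and a fold of 10.2, with the summit 425 bp after the start. 2310001H17Rik and Gm48595 followed with 21 fragments each and a fold of 9.37. Near a protein-coding start Ctcflos, which diverges from the germ line gene Ctcfl, had 32 fragments and a fold of 9.84. A630072M18Rik across from Rsbn1l and Gm26704, which diverges from the WNT receptor gene Fzd6, had 20 fragments each. Gm11131 across from the MHC class I gene H2-Q4 had 25 fragments at a summit with 8 copies, and Gm37753 across from the protocadherin gene Pcdha6 had 21 at a summit with 4 copies.

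Known lncRNA genes were then followed by lists. The list of miRNA host genes held 8 that the annotation gives as lncRNA genes, among them Mirt1 and Mirt2, which are not established hosts. Of the 8, 4 had a MIZ-1WT promoter peak and 4 a MIZ-1DPOZ promoter peak, with 3 in both. Mirt1 and Mirt2 had none. Over all lncRNA genes the shares with a peak were 6.15% and 14.8%, and a list this short allows no comparison with them. Mir17hg, the precursor of the miR-17-92 cluster, had 14 fragments in the MIZ-1WT list and 19 in that of MIZ-1DPOZ, 1192 and 1639 bp before its start. Those strongest peaks lay next to each other without overlapping, while the MIZ-1WT peak overlapped another MIZ-1DPOZ peak. Mir155hg, the precursor of miR-155 in activated B cells, had 12 and 14 fragments 301 and 274 bp after its start, a ratio of 0.870 (0.374 to 2.06). Mir9-3hg had 13 and 15 (0.861, 0.382 to 1.97). Mir142hg, whose miRNA is abundant in blood cells, had 10 fragments in the MIZ-1WT list only, and Mir124a-1hg, the host of a neuronal miRNA, 14 in the MIZ-1DPOZ list only. Both ratio intervals included 1.

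**Figure D5:**
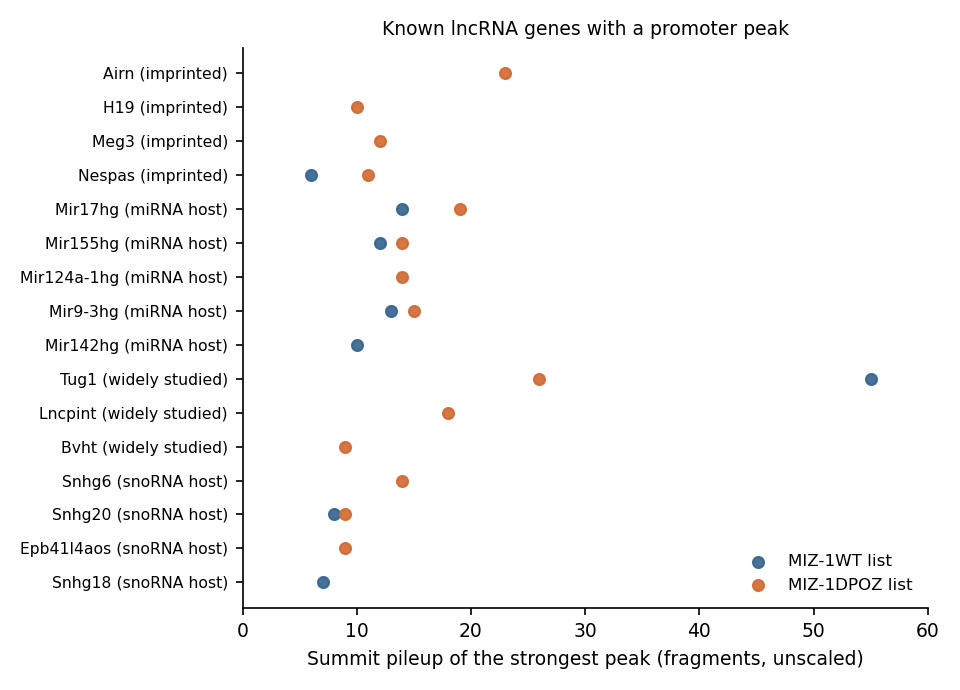
Fragments over the summit of the strongest promoter peak (x axis, not scaled for depth) for listed lncRNA genes with a promoter peak (y axis, with the list in brackets), blue for the MIZ-1WT list and orange for the MIZ-1DPOZ list; a missing point means no promoter peak in that list. Gm26917 and 1 other gene are left out. Tug1 stands apart with 55 fragments in the MIZ-1WT list and 26 in that of MIZ-1DPOZ, and the others lie at 23 or below.

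The other lists held few members. Of 15 widely studied lncRNA genes, Tug1 and Gm26917 had a peak in both lists, and Lncpint (18 fragments, 2 bp from its start) and Bvht (9) were among those in the MIZ-1DPOZ list only. Malat1, Neat1 and Pvt1 had none in either list. Of 11 genes of X inactivation and imprinting, Nespas had 6 and 11 fragments in the MIZ-1WT and MIZ-1DPOZ lists, and Airn, H19 (10 fragments) and Meg3 (12 fragments) were in the MIZ-1DPOZ list only. H19 and Meg3 are maternally expressed imprinted genes. Of 6 snoRNA host genes, Snhg20 had 8 and 9 fragments, Snhg18 7 in the MIZ-1WT list only, and Snhg6 (14) and Epb41l4aos (9) were in the MIZ-1DPOZ list only. The list drawn up for lymphocytes and immune cells held 14 lncRNA genes, not all specific to these cells, and shares Mirt2 with the miRNA host list. None of the 14 had a promoter peak in either peak list, beside 6.15% and 14.8% of all lncRNA genes. At such shares so short a list may hold few or none.

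The protein-coding genes opposite these lncRNA genes were counted against genes of B cell biology. The peaks near a protein-coding start lay closest to 215 (MIZ-1WT) and 373 (MIZ-1DPOZ) protein-coding genes. Of a list of 66 B cell genes, none was among the former and 2 among the latter (3.03%, 0.835 to 10.4), beside 0.979% and 1.70% of all 21951 protein-coding genes. They were Foxo1, a transcription factor of B cell development, and Nfkb2, a subunit of noncanonical NF-kB signalling. Gm20402, antisense to Foxo1, had 13 fragments in the MIZ-1WT list and 16 in that of MIZ-1DPOZ at separate places, and AC114539.1, which diverges from Nfkb2, had 14 in the MIZ-1DPOZ list only. Of the 267 genes that the study lists for B cell receptor signalling, 2 were among the MIZ-1WT partners (0.749%) and 5 among the MIZ-1DPOZ partners (1.87%), beside the same shares of all protein-coding genes. They included Orai1, a calcium channel subunit, opposite Gm2479 (16 fragments in the MIZ-1DPOZ list only), and Ppp3cb, a calcineurin catalytic subunit, opposite 1810062O18Rik. The latter had 10 and 14 fragments, a ratio of 1.04 (0.431 to 2.63). The other in the MIZ-1WT list was Camk2g opposite Gm30108 (11 fragments). The others in the MIZ-1DPOZ list were Plekha1 opposite Gm5602 (14), Rab35 opposite 1110006O24Rik (10) and Nfkb2, named above. The peaks of Gm30108 and Gm5602 overlapped peaks of the other list that were nearest to another start. Pim1, the gene of a serine/threonine kinase, lies opposite Gm26885, whose strongest peak had 17 fragments in each list. These peaks did not overlap, the MIZ-1WT peak lying 256 bp and the MIZ-1DPOZ peak 26886 bp from the nearest protein-coding start, and the MIZ-1WT peak overlapped another MIZ-1DPOZ peak.

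Chromosome Y held 2 lncRNA promoter peaks in the MIZ-1WT list and 46 in that of MIZ-1DPOZ. All 48 were at multi-copy summits, the 46 with 51 to 2515 genomic copies, and none overlapped the other list. Chromosome Y as a whole had 271 and 760 peaks, of which 145 and 141 overlapped the other list. Single-copy summits among them numbered 13 and 19, and their highest pileups over all summits were 132 and 122 fragments. The 46 peaks fell on 44 lincRNA genes and had 8 to 19 fragments. Chromosome X held 7 and 13 lncRNA promoter peaks. Whether the mice of both groups were of the same sex is not given in the sources used here.

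Peaks close to the limits of the rule are given as a description. In the 200 bp inside and outside the limit before the start, lncRNA starts had 10 and 21 MIZ-1WT peaks with median pileups of 10 and 8, and 46 and 55 MIZ-1DPOZ peaks with 13 and 12. At the limit after the start there were 19 and 20 MIZ-1WT peaks, with a median of 9 on both sides, and 49 and 48 MIZ-1DPOZ peaks with 12 and 11.5. At the distance of 1000 bp from a protein-coding start, 17 peaks lay just inside and 4 just outside in the MIZ-1WT list, with medians of 9 and 8.5, and 33 and 29 in the MIZ-1DPOZ list, with 11 and 12.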

How the data were processed

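Chromatin from B220+ splenocytes, isolated by positive magnetic selection, was immunoprecipitated with the MIZ-1 antibody H-190, and the authors called peaks per genotype against input. The study's methods name Trimmomatic, bwa and MACS2, whereas the submitters' processing notes name Bowtie2 2.2.6 and MACS2 2.1.0. The cut-off for peaks and the treatment of multi-mapping reads are not given in the sources used here. The deposited peak lists (mm10) hold, per summit, a fold enrichment (ratio) over local background and −log10 p and −log10 q values computed by the authors. Folds and q values are scaled within each list. The reads and the input libraries themselves were not analysed here, and the total depth is unknown.

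Peaks were assigned to GENCODE basic transcript starts on mm10 (77258 starts of 55450 genes). The pileup and local background at each summit were solved from the fold and −log10 p, which gave a whole number of fragments for 99.94% of MIZ-1WT and 99.97% of MIZ-1DPOZ peaks, within the rounding of the deposited values. This step recovered 100% of 2000 simulated pileups. The simulation used low backgrounds, so it did not cover loci of high background such as Gm26917 and Gm42418. The ratio of depths, 1.34, came from the same values and the shortest peak width of each list. Shares have 95% Wilson intervals and medians order-statistic intervals. Calculations used Python 3.11.15 with scipy 1.17.1, pandas 2.3.3 and numpy 2.4.6, compiled loops numba 0.67.0, and plots matplotlib 3.10.9.

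With 1 ChIP library per genotype no test was made. The gene class, lists and rules were chosen with earlier results of these data known. Named genes are the 3 with the largest −log10 q in each class and category (for genes in both lists, the smaller of the 2 values), again among single-copy summits, up to 6 members of each list and up to 10 coding partners. Genes outside this rule (E130307A14Rik, Gm30849, AL805899.1, 4930539M17Rik, B930018H19Rik, Gm42418 and the genes without a peak) and chromosome Y were chosen after their values were seen. Of the genes the rule names, 2 are not reported here. Listed symbols that the annotation lacks or gives another gene type were not counted. Alternatives covered peak strength, list length, copy number, the promoter window, the distance to protein-coding starts, the overlap and the scaling.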

Additional observations from a re-analysis of the deposited data

How the results depend on the processing

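No paired analysis was possible because only 1 ChIP library per genotype exists in the lists used here. Of 94 values of 11 results under 13 alternatives, 46 stayed within their limits, 47 moved and 1 reversed. Values are given for MIZ-1WT and then MIZ-1DPOZ, and "both" and "only" count lncRNA genes. The lower counts under stricter limits follow from their construction, and for the other shifts the cause was not tested.

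With −log10 q of at least 5, peaks numbered 182 and 894, the MIZ-1DPOZ overlap was 12.9%, 113 genes were in both and 62 in MIZ-1WT only, and the median log2 ratios were 0.079 (stand-alone) and -0.18 (near a protein-coding start). With a fold of at least 5, peaks numbered 307 and 824, overlaps were 51.5% and 19.8%, 157 genes were in both and 618 in MIZ-1DPOZ only. With lists of equal length, overlaps were 38.7% and 34.0%, MIZ-1DPOZ peaks numbered 668, genes 230 in both, 326 in MIZ-1WT only and 388 in MIZ-1DPOZ only, and the ratios were 0.35 and 0.34. The excess of MIZ-1DPOZ-only over MIZ-1WT-only genes was thus 388 against 326. Among single-copy summits, the share near a protein-coding start was 43.8% and 32.6% and the stand-alone ratio 0.062. Within 500 bp of the start, overlaps were 67.6% and 31.1%, shares near a protein-coding start 49.8% and 39.0%, MIZ-1DPOZ peaks 984, and genes 104 in MIZ-1WT only and 598 in MIZ-1DPOZ only. Accepting any lncRNA start gave 1205 and 2481 peaks, overlaps of 69.0% and 32.8%, shares near a protein-coding start of 65.4% and 51.2% and 864 genes in both. That share was 27.9% and 19.8% for a distance of 500 bp and 42.1% and 31.9% for 2000 bp. Overlaps were 35.9% and 14.4% for a reciprocal overlap of 50%, and 40.2% and 15.9% for summits within 100 bp. Scaling by the most frequent background gave ratios of -0.027 (stand-alone, reversed) and -0.19. Assigning peaks by the summit moved nothing, nor did further noncoding gene types, an alternative chosen after seeing the data.

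Low pileups limit every single-locus ratio, multi-copy summits limit the stand-alone class, and the assembly lacks most ribosomal repeats. Shares of list overlap depend on list length. Why the MIZ-1DPOZ list is longer was not tested. With 1 ChIP library per genotype, depth, peak calling and genotype cannot be told apart.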
